A study of Mus musculus with 8 samples.

Results

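pi2, pi9 and pi17 are major loci of the mouse testis that give rise to pachytene PIWI-interacting RNAs (piRNAs). They were taken from the deposited tables by name. 2-qE1-35981.2 is pi2, 9-qC-31469.1 and 9-qC-10667.1 are the minus and plus arms of pi9, and the single locus whose name starts with 17-qA3.3-, 17-qA3.3-26735.1, is pi17. These are 4 of the 208 piRNA loci counted, and 4 of the 94 named for a chromosome band. The study asked how Exd2∆, a Cas9-made deletion of the end of Exd2 exon 2 and of adjoining intron, affects piRNA production. Testis RNA of adult Exd2∆ mice and of Exd2+/+ mice, both of C57BL6 background, was sequenced in 2 ways, as gel-cut small RNA (mature piRNAs) and as long RNA after rRNA depletion (their precursors). There were 2 replicates, called biological by the submitters, for each genotype and assay, or 8 libraries. The labels give neither the zygosity of Exd2∆ nor the number of founders, and Exd2 itself was not analysed here because the tables list piRNA loci only.

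piRNAs are short RNAs that guide PIWI proteins, and in the mouse male germ line the PIWI proteins MIWI and MILI carry them. At the pachytene stage of meiosis long single-stranded precursors are transcribed from a limited set of mostly intergenic loci under the transcription factor A-MYB. Many of these loci are divergent pairs, with arms transcribed away from each other from a shared promoter. The precursors are then cut by the mitochondrial nuclease PLD6 into intermediates, loaded onto PIWI proteins and trimmed at their 3′ ends. Exd2 encodes an exonuclease domain-containing protein.

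On GRCm38, pi2 spans chromosome 2 from 92541141 to 92609144 on the plus strand, or 68.0 kb. The pi9 minus arm spans chromosome 9 from 67691251 to 67733786 (42.5 kb), and the plus arm spans 67733944 to 67760929 (27.0 kb). The 5′ ends of these arms lie 158 bases apart and point away from each other. pi17 spans chromosome 17 from 27325196 to 27367483 on the plus strand, or 42.3 kb. In the GENCODE M21 annotation the loci are mostly intergenic or noncoding. The noncoding gene Gm10505 covers 46.4% of pi17 from its 5′ end and the lincRNA Gm49794 covers 31.6% towards its 3′ end. Neither pi2 nor pi17 has a counted partner arm with a 5′ end within 2000 bases, so the values of each are those of 1 locus on the plus strand. The lincRNA Gm13817 starts 161 bases upstream of pi2 on the opposite strand.

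The 3′ ends of pi2 and of the pi9 plus arm run into protein-coding genes on the same strand. Chst1, which encodes a carbohydrate sulfotransferase, covers 13.9% of pi2, and C2cd4b covers 5.53% of the pi9 plus arm, where the lincRNA M5C1000I18Rik also lies on the opposite strand. Long RNA counted there can include the RNA of these genes, and whether counting used strand is not given in the sources used here. Processed pseudogenes lie antisense to both pi9 arms, Gm47110 in the minus arm and Gm7787 in the plus arm, and in sense in pi2 (Gm13815).

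**Figure D1:**
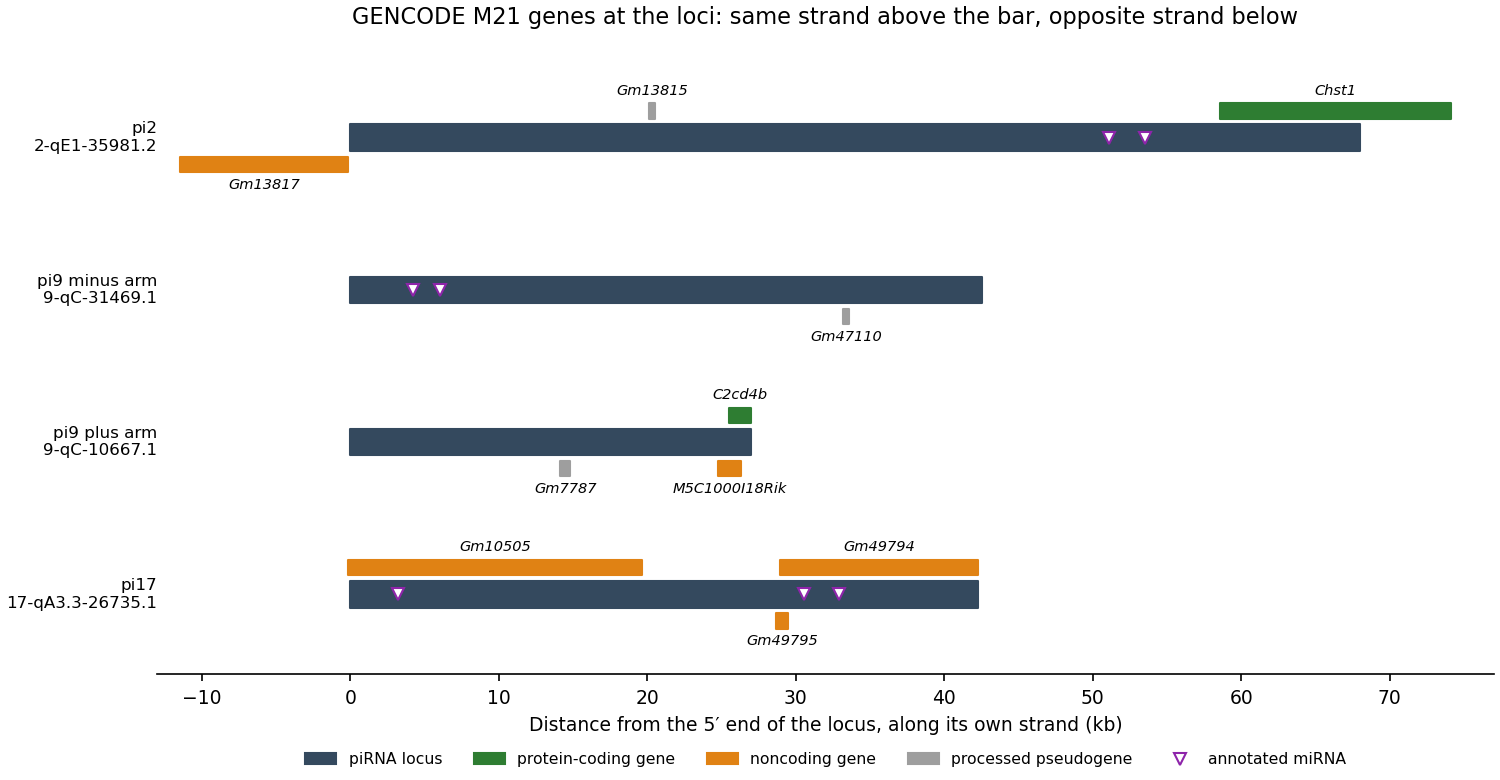
GENCODE M21 genes at the 4 loci, drawn to scale against the distance in kb from the 5′ end of each locus along its own strand. Dark bars are the piRNA loci, genes on the same strand stand above and on the opposite strand below, and triangles mark the 7 annotated miRNA hairpins. pi2 is the longest locus, and protein-coding genes, drawn as whole gene spans, lie only at the 3′ ends of pi2 and the pi9 plus arm.

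The 5′ end of pi17 coincides with the RefSeq start of Gm10505, whose promoter is shown because it is the one start region of these loci held in the sequence table (RefSeq, GRCm38.p6, chr17:27324946-27325245, plus strand, 250 bases before the start to 50 after it). It was searched on both strands for the MYB-type letters CAACTG, or CAACGG, or TAACTG, or TAACGG, and capitals mark the match.
Gm10505 promoter: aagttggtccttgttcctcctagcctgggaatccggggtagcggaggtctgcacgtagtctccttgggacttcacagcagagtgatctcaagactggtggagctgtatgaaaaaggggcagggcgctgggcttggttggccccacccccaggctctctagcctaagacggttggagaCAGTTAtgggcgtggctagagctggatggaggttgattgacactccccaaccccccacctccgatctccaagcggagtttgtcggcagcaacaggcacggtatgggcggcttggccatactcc
It held 1 match, on the minus strand, which begins 73 bases before the start. Of the 80 loci with a RefSeq promoter within 50 bases of their 5′ end, 41 (51.2%) held at least 1 match, against 28.3% of the 32817 distinct promoters of the same length in the table. A locus was counted when any of its RefSeq promoters within 50 bases held a match, while the 28.3% counts single promoters, so the shares differ in unit. A match is a description of these letters and not evidence of binding.

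Short RNAs annotated by RefSeq inside the loci give examples of sequence that these precursors carry. On the strand of the locus lie 3 miRNA hairpins in pi17, 2 in pi2 and 2 in the pi9 minus arm, and 19 of the 208 loci hold at least 1. The 7 hairpins have 13 mature sequences of 21 to 27 nt. piRNAs mostly begin with U, and the 7 of these 13 that do so are shown (53.8%, against 41.3% of the 1738 mature miRNAs in the table), with bases 2 to 8 in capitals.
mmu-miR-7216-5p, pi17: uGGAGAGCuggcagaggacccaga
mmu-miR-7216-3p, pi17: uGGAAUUUggucuuuuccggc
mmu-miR-7217-3p, pi17: uGAGAACCcacaagcaagaaga
mmu-miR-7218-5p, pi17: uGCAGGGUuuaguguagaggg
mmu-miR-7221-3p, pi2: uGACUGUGggcuggggacugg
mmu-miR-7222-3p, pi2: uCCAGGACagugggcaggagcag
mmu-miR-7242-3p, pi9 minus arm: uGGCAGCUcggcucuacucugg
No seed is shared among the 13, and those not shown begin with A, C or G. Whether any of the 13 is made as a piRNA was not tested. The deposited counts are sums over each whole locus, so these short RNAs have no values of their own here.

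The 4 loci were among the richest sources of small RNA. Together they held 16.2% and 15.6% of the small RNA counts in the Exd2∆ libraries, against 17.1% and 17.2% in the Exd2+/+ libraries, although they make up 1.92% of the loci and 2.04% of the summed locus length. In long RNA they held 6.28% and 5.92% in Exd2∆, against 7.54% and 7.13% in Exd2+/+. In both assays both Exd2∆ values lay below both Exd2+/+ values. Library totals over the 208 loci were 28408830 and 33983711 estimated counts in Exd2∆ and 29039671 and 37660202 in Exd2+/+ for small RNA. For long RNA they were 960909 and 1638327 in Exd2∆ and 1406947 and 1842625 in Exd2+/+. At these depths the counting error of a member was at most 0.135% per small RNA library and 1.07% per long RNA library. These errors cover counting only, since the labels name no molecular identifiers. Every level is relative to the sum over the 208 loci, so a shift common to the whole set leaves no trace here. In whole testis RNA, fewer cells of a type and less RNA per cell cannot be told apart, and no cell type markers are in the tables.

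Per kb of locus, the small RNA levels spread less than 2-fold among the members. The unit is CPM (counts scaled to library size, with TMM factors) over the locus length in kb. In small RNA the pi9 minus arm had 1064 ± 77.5 CPM per kb in Exd2∆ and 1181 ± 27.2 in Exd2+/+. pi17 had 827 ± 7.88 in Exd2∆ and 1148 ± 9.44 in Exd2+/+. pi2 had 800.4 ± 97.0 in Exd2∆ and 828 ± 8.78 in Exd2+/+. The pi9 plus arm had 825 ± 60.0 in Exd2∆ and 705 ± 7.32 in Exd2+/+ (all SD over 2 libraries). In Exd2∆ the order was the pi9 minus arm (rank 7 of 208), pi17 (13), the pi9 plus arm (14) and pi2 (16), and the libraries of pi17 and the plus arm lay inside the range of the pi2 libraries. In Exd2+/+ it was the pi9 minus arm (rank 6), pi17 (7), pi2 (17) and the pi9 plus arm (21), with no overlap between these 4 in the Exd2+/+ libraries.

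In that Exd2+/+ order other loci of much shorter length stood beside pi2. Next to pi2 stood 1-qD-2017.2 above (836 ± 11.2 CPM per kb in Exd2+/+, 2.98 kb long) and 11-qE1-3997.2 below (822 ± 8.61), both with overlapping libraries. The small RNA log2 fold change of 1-qD-2017.2 was -1.28 (adjusted p = 4.77e-07, edgeR quasi-likelihood). Above the pi9 minus arm stood 15-qD3-14639.3 (1213 ± 5.55), and below pi17 stood 5-qF-14508.2 (1125 ± 9.34), neither overlapping. The pi9 plus arm lay between 14-qA3-19970.2 (717 ± 6.31, not overlapping) and 4-qB3-277.1 (698 ± 22.0, overlapping), SD with n = 2 each.

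In long RNA the order differed. pi17 led with 472 ± 41.0 CPM per kb in Exd2∆ and 552 ± 20.3 in Exd2+/+. The pi9 arms lay close together, with 356 ± 3.20 in Exd2∆ and 427 ± 18.5 in Exd2+/+ for the minus arm, and 342 ± 5.34 in Exd2∆ and 402 ± 16.4 in Exd2+/+ for the plus arm. pi2 was lowest, with 264 ± 22.2 in Exd2∆ and 287 ± 15.0 in Exd2+/+ (all SD over 2 libraries). The libraries of the pi9 arms did not overlap within either genotype, though the lowest Exd2+/+ value of the minus arm (414) and the highest of the plus arm (413) nearly touched. In the Exd2+/+ order of long RNA per kb the ranks were 17 for pi17, 28 and 30 for the pi9 minus and plus arms and 56 for pi2.

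**Figure D2:**
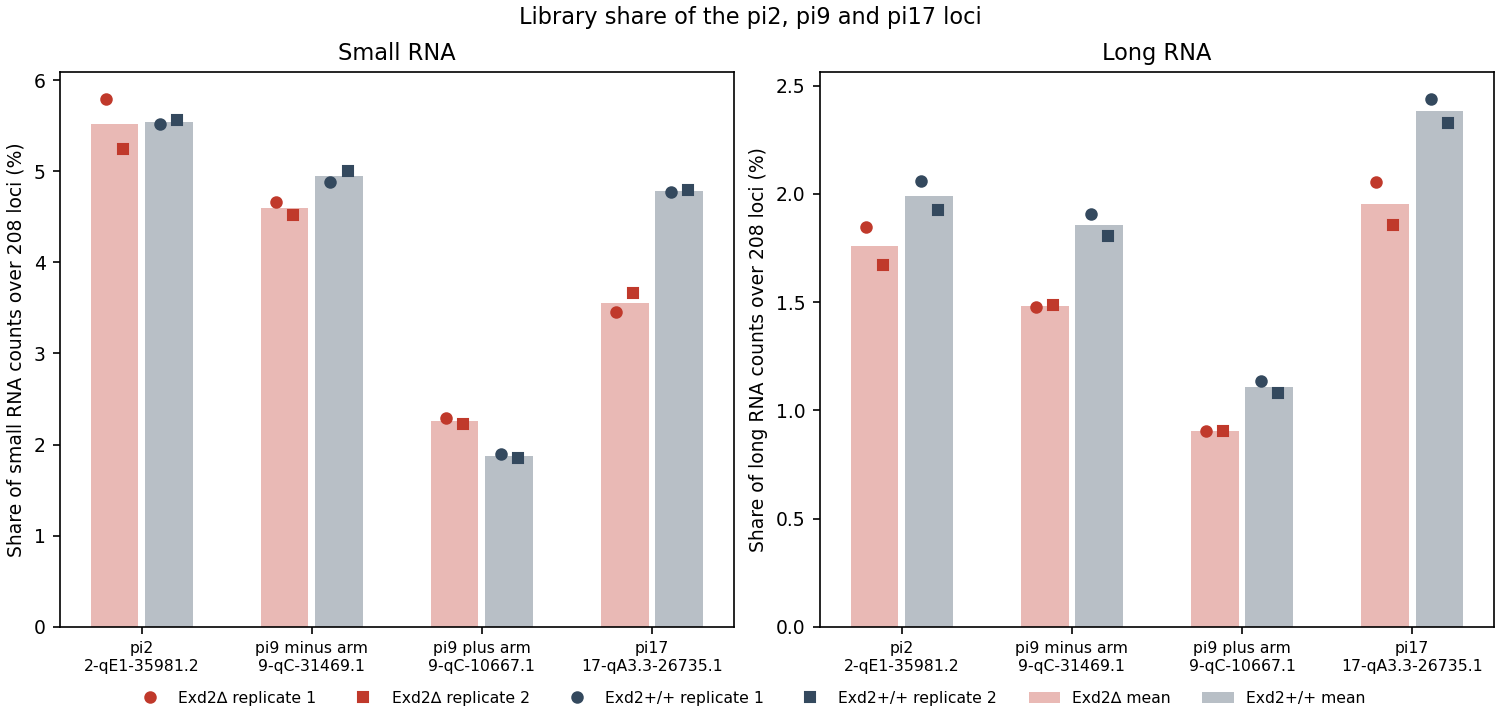
Share of the counts over 208 loci, in percent, at each locus and arm in small RNA (left) and long RNA (right). Bars are means of 2 libraries and points are libraries, with Exd2∆ left of Exd2+/+. In small RNA both Exd2∆ points lie below both Exd2+/+ points at pi17 and the pi9 minus arm. They lie above them at the pi9 plus arm and on either side of them at pi2. In long RNA each of the 4 loci has both Exd2∆ points below both Exd2+/+ points.

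The genotype effect on piRNAs differed among the loci. pi17 fell, the pi9 plus arm rose, and the pi9 minus arm and pi2 did not pass the test (edgeR quasi-likelihood, Benjamini-Hochberg adjusted over 208 loci, called below 0.05). The 1 rise and 1 fall among 4 loci stand beside 33.2% of all 208 loci called higher and 31.7% called lower in Exd2∆, 64.9% in all, so being called does not set the members apart. Scaled libraries of the genotypes did not overlap at 3 of the 4, with 1 higher and 2 lower in Exd2∆, where 39.9% of all loci were higher and 39.4% lower without overlap, 79.3% in all.

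pi17 took 3.45% and 3.66% of the small RNA counts in the Exd2∆ libraries, against 4.77% and 4.79% in the Exd2+/+ libraries. Both Exd2∆ libraries were low, and the replicates of a genotype lay close together. Mean levels were 34991 ± 333 CPM in the Exd2∆ pair and 48559 ± 399 CPM in the Exd2+/+ pair (SD), 0.721-fold. The log2 fold change was -0.47 ± 0.058 (SE; 95% interval -0.60 to -0.34; adjusted p = 1.02e-04, edgeR quasi-likelihood). In the authors' deposited table it is -0.47 with an adjusted p of 1.06e-04. The call held in all 13 alternatives, at a log2 fold change between -0.50 and -0.43. Of these, the 2 filters gave the same values as the main fit. Among the 208 loci this fall ranked 43 from the lowest and 75 by absolute size.

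The pi9 plus arm, 9-qC-10667.1, went the other way. It took 2.30% and 2.22% of the small RNA counts in Exd2∆, against 1.89% and 1.85% in Exd2+/+. Both Exd2∆ libraries were above both Exd2+/+ libraries. In scaled levels they had 23405 and 21115 CPM in Exd2∆, against 19172 and 18893 CPM in Exd2+/+, again without overlap. The log2 fold change was 0.23 ± 0.063 (SE; 95% interval 0.083 to 0.37; adjusted p = 0.0117, edgeR quasi-likelihood), or 1.17-fold, and 0.23 in the authors' deposited table. Leaving out either Exd2+/+ library ended the call, with 0.24 when replicate 1 was dropped and 0.22 when replicate 2 was dropped. Each of these fits leaves 1 Exd2+/+ library. It held in the other 11 of 13 alternatives, of which the 2 filters gave the same values as the main fit.

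The pi9 minus arm, 9-qC-31469.1, took 4.67% and 4.52% in Exd2∆, against 4.88% and 5.01% in Exd2+/+. Both Exd2∆ libraries were below both Exd2+/+ libraries. In scaled levels, with 47582 and 42923 CPM in Exd2∆ against 49404 and 51038 CPM in Exd2+/+, the gap between the genotypes was smaller than the difference between the Exd2∆ replicates. Its log2 fold change was -0.15 ± 0.069 (SE; 95% interval -0.31 to 0.0067; adjusted p = 0.0843, edgeR quasi-likelihood). It passed the threshold in 4 of 13 alternatives. These were RLE scaling (-0.18, adjusted p = 0.00958), library-total scaling (-0.11, adjusted p = 0.0268), DESeq2 (-0.18, adjusted p = 0.0303) and dropping Exd2∆ replicate 1 (-0.24), which leaves 1 Exd2∆ library. The value was negative in all 13, of which the 2 filters gave the same values as the main fit.

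pi2 took 5.80% and 5.24% of the small RNA counts in Exd2∆, against 5.52% and 5.57% in Exd2+/+. The Exd2∆ libraries lay on either side of the Exd2+/+ ones. Its log2 fold change was -0.049 ± 0.084 (SE; adjusted p = 0.642, edgeR quasi-likelihood), with a 95% interval of -0.24 to 0.14. Without Exd2∆ replicate 2 the sign turned (0.062). Without Exd2∆ replicate 1 the value was -0.19 and passed the threshold, in a fit that leaves 1 Exd2∆ library.

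Long RNA of all 4 loci stood below 0, as did that of 96 of all 208 loci and of 61 of the 90 other band-named loci. By edgeR's quasi-likelihood test 0 of 4 were called, where 7.69% of all 208 loci were called, 6.73% higher and 0.962% lower. At an unadjusted p under 0.05 there were 2 of 4, the pi9 arms, where 29.3% of all loci passed. DESeq2 called 1, the pi9 minus arm (-0.27, adjusted p = 0.0441), and 18.8% of all loci. edgeR's exact test and limma-voom each called 0 of the 4, where they called 12% and 8.65% of all loci. Scaled libraries of the genotypes did not overlap at 3 of the 4, all lower in Exd2∆, where 62.5% of all loci did not overlap, 32.2% higher and 30.3% lower.

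The pi9 minus arm took 1.48% and 1.49% of the long RNA counts in Exd2∆, against 1.91% and 1.80% in Exd2+/+. Both Exd2∆ libraries were low and nearly alike. Its log2 fold change was -0.26 ± 0.077 (SE; 95% interval -0.46 to -0.072; adjusted p = 0.117, edgeR quasi-likelihood). The plus arm took 0.904% and 0.902% in Exd2∆, against 1.14% and 1.08% in Exd2+/+, for -0.23 ± 0.075 (SE; 95% interval -0.42 to -0.046; adjusted p = 0.120, edgeR quasi-likelihood). The arms therefore had nearly equal values in long RNA, while in small RNA their values had opposite signs. With each library left out in turn, the value lay between -0.31 and -0.22 at the minus arm and between -0.27 and -0.19 at the plus arm. Such a fit leaves 1 library in a genotype, and the small RNA and interaction fits without 1 library share this limit. Some long RNA values at the members passed the threshold when an Exd2∆ library was left out, and none when an Exd2+/+ library was. These long RNA calls are not taken as results here.

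pi17 took 2.05% and 1.85% of the long RNA counts in Exd2∆, against 2.44% and 2.33% in Exd2+/+. Both Exd2∆ libraries were low. Its log2 fold change was -0.23 ± 0.094 (SE; 95% interval -0.46 to 0.0086; adjusted p = 0.183, edgeR quasi-likelihood). Without Exd2∆ replicate 1 it stood at -0.32, and without Exd2∆ replicate 2 at -0.14. pi2 took 1.85% and 1.67% in Exd2∆, against 2.06% and 1.92% in Exd2+/+, for -0.12 ± 0.095 (SE; 95% interval -0.36 to 0.12; adjusted p = 0.449, edgeR quasi-likelihood). The pi2 value stood at -0.20 when Exd2∆ replicate 1 was dropped and at -0.031 when Exd2∆ replicate 2 was dropped. In the scaled CPM the pi2 libraries of the genotypes overlapped, while in the library shares they did not.

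**Figure D3:**
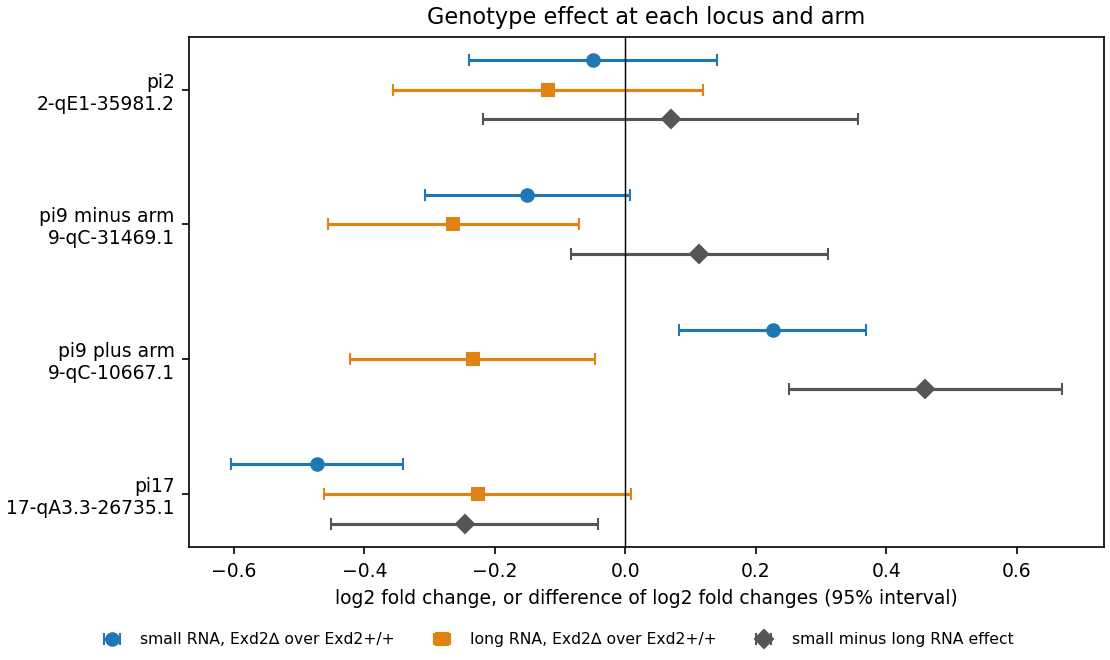
Genotype effect at each locus and arm, with 95% intervals from edgeR's quasi-likelihood fits, on a log2 scale. Circles are small RNA and squares long RNA, Exd2∆ over Exd2+/+, and diamonds are the small RNA effect minus the long RNA effect. The small RNA intervals of pi17 and of the pi9 plus arm lie on opposite sides of 0, and the long RNA values of the pi9 arms lie side by side.

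Whether the piRNA effect differed from the long RNA effect was tested in a model of all 8 libraries, by its interaction term. The model treats the libraries as independent, and the labels do not say whether small and long RNA libraries of one replicate number share an animal. It gives each locus 1 spread for both assays, though the common coefficient of variation between replicates was 0.069 in small RNA and 0.10 in long RNA. The pi9 plus arm and pi17 were called, in opposite directions, where 51.9% of all 208 loci were called, 25.5% with the higher effect in small RNA and 26.4% with the lower. At the plus arm the small RNA effect exceeded the long RNA effect by 0.46 ± 0.091 on the log2 scale (SE; 95% interval 0.25 to 0.67; adjusted p = 0.00366, edgeR quasi-likelihood), and the call held in all 11 alternatives. At pi17 the difference was -0.25 ± 0.089 (SE; 95% interval -0.45 to -0.041; adjusted p = 0.0476, edgeR quasi-likelihood). That call was lost with library-total scaling (-0.14, adjusted p = 0.168) and when any 1 of 7 of the 8 libraries was dropped, at an adjusted p of up to 0.152. In those 7 fits the value lay between -0.28 and -0.16, and it was -0.16 without the long RNA library of Exd2∆ replicate 1. Only without the long RNA library of Exd2∆ replicate 2 was it kept (-0.33, adjusted p = 0.00587, edgeR quasi-likelihood). At the pi9 minus arm (0.11 ± 0.086, adjusted p = 0.309) and pi2 (0.069 ± 0.13, adjusted p = 0.673) it was not called. With library-total scaling the pi9 minus arm was called (0.22, adjusted p = 0.0169, edgeR quasi-likelihood).

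Expressed as small RNA CPM over long RNA CPM, the plus arm stood at 2.41 in Exd2∆ and 1.75 in Exd2+/+. pi17 stood at 1.75 in Exd2∆ and 2.08 in Exd2+/+. The pi9 minus arm stood at 2.99 in Exd2∆ and 2.76 in Exd2+/+, and pi2 at 3.03 in Exd2∆ and 2.89 in Exd2+/+. Each is a ratio of means of separate libraries, each scaled to its own assay, so 1 means an equal part of both assays. The median over the 94 band-named loci was 0.913 in Exd2∆ and 0.863 in Exd2+/+, and over all loci 0.137 in Exd2∆ and 0.164 in Exd2+/+. All 4 members thus gave more small RNA per long RNA than the median locus in both genotypes, with ranks in Exd2+/+ of 6 for pi2, 9 for the pi9 minus arm, 19 for pi17 and 26 for the plus arm.

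The ratio of the pi9 arms needs no scaling, since both arms come from the same library. In small RNA the plus arm had 0.492 and 0.492 counts per count of the minus arm in the Exd2∆ libraries, against 0.388 and 0.370 in the Exd2+/+ libraries. The Exd2∆ replicates were nearly identical and both Exd2+/+ values were lower, a change of the ratio by 29.8% (log2 0.38), with a largest gap between replicates of 0.068 on the log2 scale. In long RNA the ratio was 0.612 and 0.606 in Exd2∆, against 0.596 and 0.598 in Exd2+/+, a change of 2.06% (log2 0.029). With 2 libraries against 2, the smallest exact two-sided permutation p is 0.333, so that test cannot pass at the threshold, and no other test of the ratio was made. The summed pi9 share of small RNA was 6.96% and 6.74% in Exd2∆, against 6.77% and 6.86% in Exd2+/+, with overlap. In long RNA it was 2.38% and 2.39% in Exd2∆, against 3.04% and 2.88% in Exd2+/+, without overlap.

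Among the 12 divergent pairs in the tables (5′ ends within 2000 bases, opposite strands, 1 of them overlapping), changes of the arm ratio were common. In small RNA 10 of the 12 pairs had non-overlapping genotypes, with a median absolute change of 0.23 on the log2 scale (0.062 to 1.45), and pi9 ranked 5. In long RNA 9 of the 12 did not overlap, with a median of 0.10 (0.017 to 0.61), and pi9 ranked 11.

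**Figure D4:**
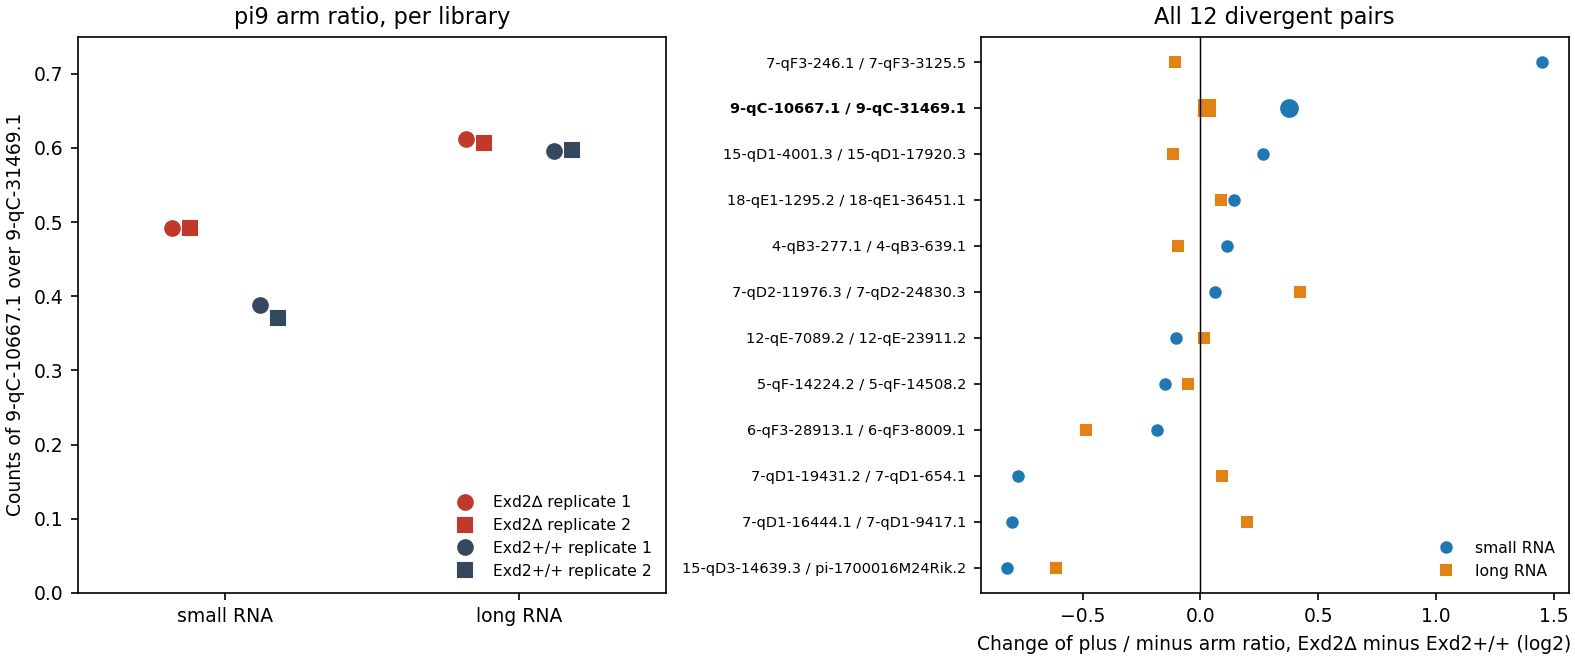
Left, the counts of the pi9 plus arm over the minus arm in each of the 8 libraries, with Exd2∆ left of Exd2+/+. Right, the change of the plus over minus arm ratio (log2, Exd2∆ minus Exd2+/+) at all 12 divergent pairs in small RNA (circles) and long RNA (squares), with pi9 in bold. At pi9 the ratio is 0.492 in both Exd2∆ small RNA libraries against 0.388 and 0.370 in Exd2+/+, and the long RNA points lie together.

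The other loci of this type moved in both directions as well. Of the 22 other arms of divergent pairs, 7 rose, 6 fell and 9 were not called in small RNA, with a median log2 fold change of 0.049. In long RNA 1 rose, 0 fell and 21 were not called, with a median of -0.12 and 17 of 22 below 0. Of the 33 other loci in 16 bands of abundant pachytene loci, 9 rose and 8 fell in small RNA (median 0.078), and 1 rose and 1 fell in long RNA (median -0.13). The median over all 208 loci was 0.036 in small RNA and 0.013 in long RNA. The members had a median of -0.10 in small RNA and -0.23 in long RNA. The lists overlap, and the members and lists were chosen with earlier results of these data known, so no test was made over them.

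The loci whose pattern was most like that of each member were found by the Euclidean distance between log2 CPM over the 8 libraries, centred within each assay. The pi9 plus arm lay closest to 18-qE1-36451.1 (distance 0.060) and 12-qE-23911.2 (0.087), where the median distance to all loci was 0.56. In small RNA these stood at 0.17 and 0.20, and in long RNA at -0.22 and -0.20. The distance includes the genotype difference, so likeness of the fold changes follows from how the loci were chosen. pi17 was most like 15-qD3-14639.3 (distance 0.21), which fell in small RNA by 0.63 (adjusted p = 8.13e-06, edgeR quasi-likelihood), and like 5-qF-4633.2 (0.21). 5-qF-4633.2 was also the closest to the pi9 minus arm (0.15), followed by pi-Kcng3.1 (0.15). pi2 was closest to 5-qF-14508.2 (0.18) and to the pi9 minus arm (0.22).

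**Figure D5:**
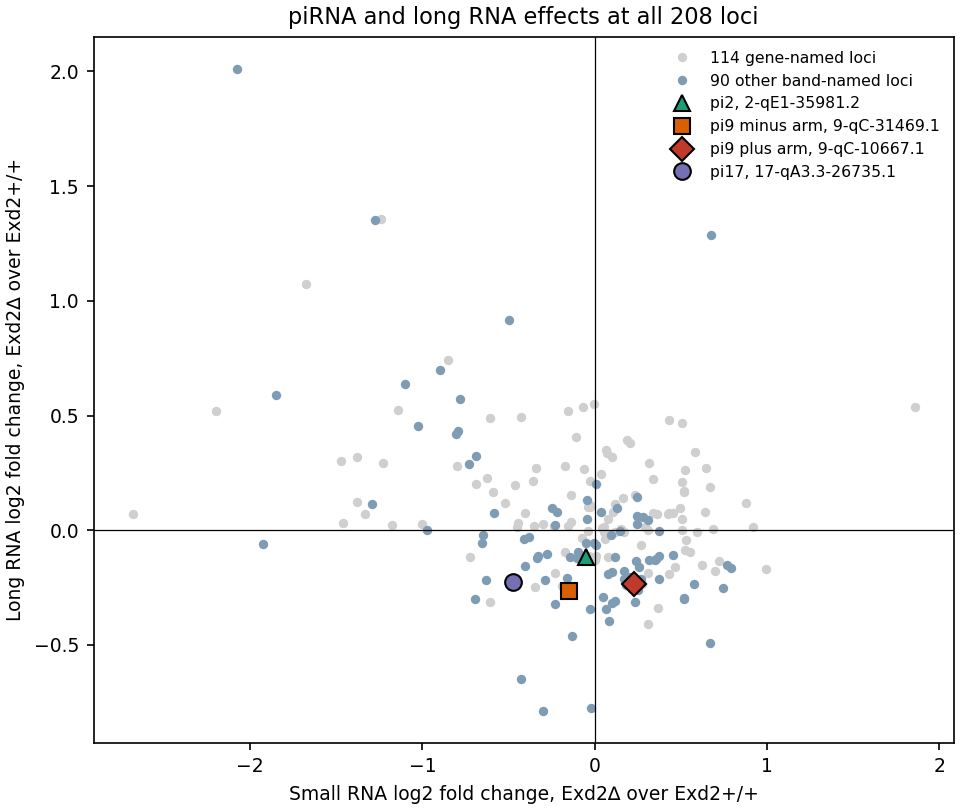
Small RNA against long RNA log2 fold change (Exd2∆ over Exd2+/+) at all 208 loci. Each point is 1 locus, with the 4 members as large marked symbols, 90 other band-named loci in blue and 114 gene-named loci in grey. All 4 members lie below 0 on the long RNA axis, between -0.26 and -0.12, and between -0.47 and 0.23 on the small RNA axis. On the long RNA axis 96 of all 208 loci and 61 of the 90 other band-named loci lie below 0.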

How the data were processed

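The authors deposited, per assay, estimated counts per piRNA locus, with log2 fold changes and adjusted p-values of their own comparison, per the file headers. The submitters' processing notes name cutadapt, STAR, edgeR and GRCm38. Not given in the sources used here are how reads were counted, whether strand was used and how reads with several alignments were treated. Columns were matched by the sample codes in the labels.

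Estimated counts were rounded and fitted per assay with edgeR 4.0.16 in R 4.3.3 (filterByExpr, which kept 208 loci, TMM, estimateDisp, glmQLFit with its legacy option, genotype as the only term). Adjustment followed Benjamini and Hochberg across the 208 loci. The SE is the absolute log2 fold change over the square root of F. For the interaction, TMM factors were computed separately for each assay and the 8 libraries fitted together. The fits were tested on simulated counts. p-values rest on the spread between 2 replicates per group, with the variance of each locus drawn towards that of the other loci.

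Named were all members, their neighbours in Exd2+/+ small RNA CPM per kb and the 2 loci most alike in pattern. Members and lists were chosen with earlier results of these data known. No genome was used, so the motif background covers RefSeq promoters only, not all loci as planned. Alternatives were RLE and library-total scaling, 2 filters, DESeq2 1.42.0, the exact test, limma-voom (limma 3.58.1), edgeR's default option, a replicate block and leaving out each library.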

Additional observations from a re-analysis of the deposited data

Results flagged for a closer look

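The genotype effect differed between small and long RNA at 2 of the 4 loci, by the interaction of assay and genotype (edgeR quasi-likelihood). It was 0.46 at 9-qC-10667.1, the pi9 plus arm, and -0.25 at 17-qA3.3-26735.1, pi17, as the small RNA effect minus the long RNA effect on the log2 scale. The calls stand beside 51.9% of all 208 loci, and that of pi17 was lost with library-total scaling and when any 1 of 7 libraries was dropped.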

How the results depend on the processing

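With 2 libraries per group, several calls changed when 1 library was left out, in fits that leave 1 library in a group. The counting error of a member was at most 0.135% per small RNA library and 1.07% per long RNA library. By edgeR's quasi-likelihood test 16 loci were called in long RNA, against 39 with DESeq2, 25 with the exact test, 38 with the replicate block and 0 to 105 when each library was left out. With 135 small RNA calls, no setting moved the count by more than 1.5 times (101 to 138). Among fits that kept every library, the pi9 minus arm in small RNA passed with RLE (-0.18), library-total scaling (-0.11) and DESeq2 (-0.18). In long RNA it passed among such fits with DESeq2 (-0.27). With library-total scaling the interaction was -0.14 at pi17, no longer called, and 0.22 at the pi9 minus arm, newly called. Leaving out each library in turn gave the following ranges of log2 fold change. In small RNA they were -0.19 to 0.062 at pi2, where the sign turned without Exd2∆ replicate 2, -0.24 to -0.085 at the pi9 minus arm and 0.14 to 0.29 at the plus arm. In long RNA they were -0.20 to -0.031 at pi2, -0.31 to -0.22 at the minus arm, -0.27 to -0.19 at the plus arm and -0.32 to -0.14 at pi17. The interaction ranged from -0.060 to 0.19 at pi2, with -0.060 without the small RNA library of Exd2∆ replicate 1 and -0.014 without the long RNA library of Exd2∆ replicate 2, and from -0.33 to -0.16 at pi17. The cause of these shifts was not tested.

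Of 104 member fold changes recomputed, 89 kept their direction and their side of the threshold, as did 33 of 44 member interactions. The 89 include the fits without a filter in both assays and with the stricter filter in small RNA, which repeat the main values. Of 16 densities recomputed with RLE, 4 moved by more than 1 SD. Whether replicates of the same number form pairs across the genotypes cannot be decided here. The correlation of the replicate differences of Exd2∆ and Exd2+/+ across loci was 0.039 in small RNA and 0.34 in long RNA, with only 2 pairs. With the replicate block 118 small RNA loci (135 without it), 38 long RNA loci (16 without it) and 101 interactions (108 without it) were called. No member's call changed.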
